A study of Homo sapiens with 8 samples.

Results

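The S100 and annexin genes of BT549 cells are described here in forced suspension and in attached culture. Members were all array rows whose single gene symbol starts with S100 plus a letter or with ANXA plus a digit, which gave 39 genes of the 18417 tested, with 1 probe set each. They comprise 22 genes of the S100 pattern and 17 of the annexin pattern. Of the S100 pattern, 20 are family genes, 1 is the pseudogene S100A7L2 and 1 is S100PBP, which encodes a protein that binds S100P. Of the annexin pattern, 11 are family genes and 3 are the ANXA2 pseudogenes ANXA2P1, ANXA2P2 and ANXA2P3. The other 3 are ANXA2R, which encodes an annexin A2 receptor, and the non-coding neighbours ANXA2R-AS1 and ANXA2R-OT1.

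BT549 is a human triple-negative breast cancer cell line of mesenchymal character, and it is the single line studied. In the suspended group, 4 cultures were kept for 24 h in dishes whose poly-HEMA coating keeps cells from attaching. In the attached group, 4 cultures were grown on ordinary tissue culture plastic. Both groups had RPMI medium with 10% FBS and insulin, and the design text calls them biological quadruplicates. For attached cells the labels give 24 h in the source and growth fields and 48 h in the treatment field. If 48 h holds, time in culture and attachment cannot be told apart. Total RNA was taken with TRIzol and labelled with a FlashTag biotin kit. That kit is sold for microRNA, so the labelling behind these gene-level signals is uncertain.

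S100 proteins are small calcium sensors with paired EF-hand loops. They act mostly as dimers that open on calcium binding and grip partner proteins, and several are also secreted and signal through surface receptors. Annexins bind acidic phospholipids when calcium rises, and they work in membrane repair, vesicle traffic and the cortical cytoskeleton. The families meet in defined complexes, in which the N-terminal tail of an annexin sits in the groove of an S100 dimer, as in annexin A2 with S100A10, annexin A1 with S100A11 and annexin A11 with S100A6.

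Values are log2 signals. Differences are suspended minus attached, tested with limma across all 18417 genes with Benjamini-Hochberg adjustment, and a gene was called where the adjusted p was under 0.05. The p-values measure the spread between these cultures of 1 line, and 4 arrays a group limit the precision. The array gives no detection call, so a low signal carries no statement that a gene is absent, and signals of different probe sets are set side by side only to show which lie low on this array, not as levels of one gene against another. Array medians lay between 6.02 and 6.07. Signals correlated across probe sets at 0.993 to 0.996 among suspended arrays, 0.995 to 0.996 among attached arrays and 0.987 to 0.994 between groups. The labelled cell type was set against marker genes, and 7 mesenchymal markers averaged 10.24 to 10.29 per suspended array and 10.30 to 10.38 per attached array. The 7 luminal and epithelial markers averaged 5.83 to 5.90 and 5.81 to 5.92. Of the mesenchymal markers, VIM and FN1 were not called, ZEB1 (0.27), SPARC (0.37) and CD44 (0.22) were higher in suspended cultures, and CDH2 (-0.38) and AXL (-1.04) were lower. Of the epithelial ones 0 were called by limma, with 0 at an unadjusted p under 0.05, and their means ran from CDH1, at 4.26 in suspended and 4.18 in attached cultures, to KRT18, at 8.13 and 8.16.

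Annexin genes were called in both directions, and S100A6 was the only S100 gene called. In suspended cultures ANXA11, ANXA6, ANXA4, the non-coding ANXA2R-AS1 and S100A6 rose, by 1.16-fold to 1.44-fold, and ANXA5 fell by 1.14-fold. Thus 6 of 39 members were called, 15.4%, against 20.6% of all genes. The calls of ANXA6, ANXA4 and ANXA5 were lost in several alternatives, so the only lower call was not stable. Of all genes 10.4% were called higher and 10.2% lower. For the annexin pattern the counts were 4 higher and 1 lower of 17, with a median difference of 0.03. For the S100 pattern they were 1 higher and 0 lower of 22, with a median of 0.09, and 12 of the 22 had an unadjusted limma p under 0.05, against 32.5% of all genes. The median over all genes was 0.02. Groups did not overlap for 8 members, against 24.8% of all genes. In these bulk samples, fewer cells carrying a transcript and less transcript per cell cannot be told apart.

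**Figure D1:**
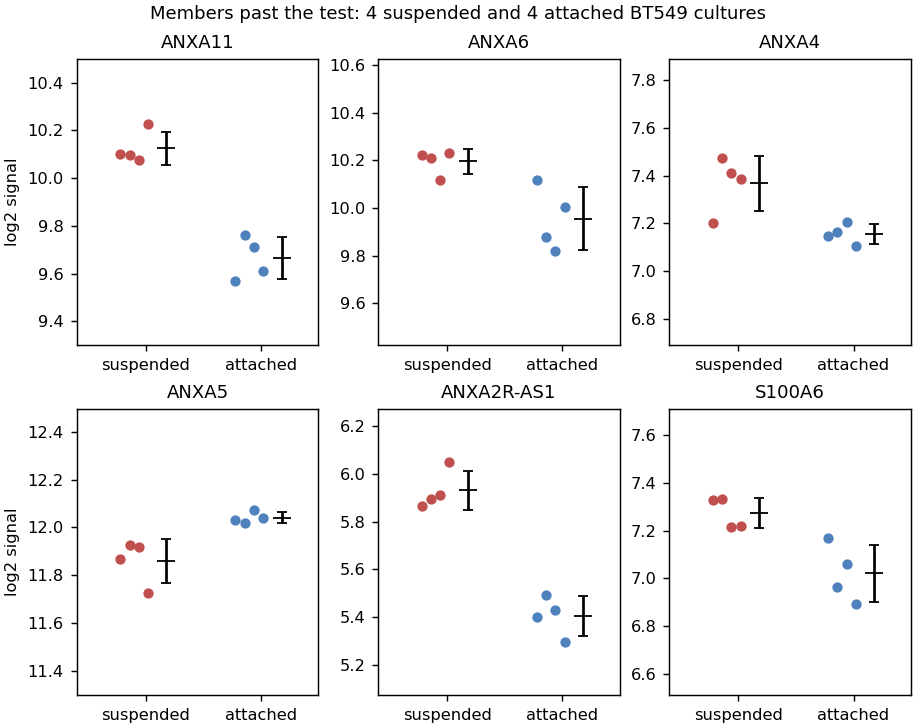
Log2 signal (vertical axis, same span in each panel) of the 6 called members, with 1 point per culture, suspended left and attached right; the cross bar and whiskers give the mean and SD of 4 cultures. ANXA11 and ANXA2R-AS1 show wide gaps between the groups, ANXA5 is the one member lower in suspension, and for ANXA4 the lowest suspended culture lies at the level of the highest attached one.

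ANXA11, an annexin of RNA granule transport that binds S100A6, had the largest difference among annexin family genes. Its log2 signal was 10.10, 10.10, 10.08 and 10.23 in suspended cultures, against 9.57, 9.76, 9.71 and 9.61 in attached cultures. All 4 suspended values were above all 4 attached values. The means were 10.13 and 9.66, a difference of 0.46 (SE 0.057, 95% interval 0.34 to 0.59, limma adjusted p = 0.000168). ANXA11 remained called under every alternative tried.

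S100A6, also called calcyclin, partners annexin A11 and is abundant in mesenchymal and proliferating cells. Its signal was 7.33, 7.33, 7.21 and 7.22 in suspended cultures and 7.17, 6.96, 7.06 and 6.89 in attached cultures. The groups did not overlap, although the highest attached culture came close to the lowest suspended one. The difference was 0.25 (SE 0.064, 95% interval 0.11 to 0.39, limma adjusted p = 0.0155), and S100A6 remained called under every alternative. Some of these calls were narrow, with limma adjusted p = 0.0483 without attached replicate 4 and 0.0429 with centring on tested genes.

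ANXA6, a large annexin with a doubled core that links membranes to actin and takes part in cholesterol traffic, had 10.22, 10.21, 10.12 and 10.23 in suspended cultures. In attached cultures it had 10.12, 9.88, 9.82 and 10.00. The suspended values were tightly grouped, and the highest attached value touched the lowest of them without passing it. The difference of 0.24 (SE 0.066, limma adjusted p = 0.0227) lost its call without suspended replicate 1 (adjusted p = 0.0577), suspended replicate 4 (0.055), attached replicate 2 (0.0623) or attached replicate 3 (0.0711), with 0.20 to 0.23 as the difference in these 4 limma refits. The call was also lost with centring on tested genes (0.19, limma adjusted p = 0.0561) and with all rows tested (0.0575).

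ANXA4, an annexin of epithelial membranes that forms arrays on the inner leaflet, had 7.20, 7.47, 7.41 and 7.39 in suspended cultures and 7.15, 7.16, 7.20 and 7.11 in attached cultures. One suspended culture sat among the attached ones, so the groups overlapped. The difference was 0.21 (SE 0.060, limma adjusted p = 0.0281). This call was lost when any of suspended replicates 2, 3 and 4 or attached replicates 1, 2 and 4 was left out, with limma adjusted p from 0.0544 to 0.0806 and differences from 0.18 to 0.21. It was also lost with median centring (0.19, limma adjusted p = 0.0617), with centring on tested genes (0.17, 0.0976) and with all rows tested (0.0642).

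ANXA5, the annexin whose binding to exposed phosphatidylserine is used to stain dying cells, had 11.87, 11.93, 11.92 and 11.72 in suspended cultures and 12.03, 12.02, 12.07 and 12.04 in attached cultures. Every suspended value was below every attached one, and the attached cultures varied least of all members (SD 0.02). The difference was -0.18 (SE 0.053, 95% interval -0.30 to -0.07, limma adjusted p = 0.0318). It lost its call without suspended replicate 1 or 4 or any 1 attached culture, with limma adjusted p from 0.0547 to 0.0872 and differences from -0.19 to -0.14. With quantile normalization it was -0.12 (limma adjusted p = 0.104), and the call was also lost with all rows tested (0.065) and with a replicate block (0.0641).

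ANXA2R-AS1, a non-coding RNA named as antisense to ANXA2R, showed the largest difference of all members. Its signal was 5.87, 5.90, 5.91 and 6.05 in suspended cultures and 5.40, 5.49, 5.43 and 5.29 in attached cultures. The groups stood well apart, with a difference of 0.53 (SE 0.059, 95% interval 0.40 to 0.66, limma adjusted p = 7.5e-05), and the call held under every alternative in which it was tested, which leaves out the filter at the median of gene means. ANXA2R itself had 6.66, 6.55, 6.46 and 6.49 against 6.50, 6.45, 6.55 and 6.52, fully overlapping groups, with a difference of 0.03 (95% interval -0.08 to 0.15). The third gene at this locus, ANXA2R-OT1, differed by 0.14 without overlap and without passing the test (limma adjusted p = 0.0929), though it passed with the filter at the median of gene means. Whether the labelling kept strands apart is not given in the sources used here, so signals of overlapping antisense partners are uncertain.

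Promoter windows of 3 called genes are printed as examples, without a rule that sets them apart from the other called genes. The windows are RefSeq sequences of build GRCh38.p14, from 250 bases before to 50 after a start site, given 5' to 3' on the gene's strand, and the first window listed is shown for each gene. The coordinates are chr1:153535942-153536241 for S100A6, chr5:151157730-151158029 for ANXA6 and chr4:121696931-121697230 for ANXA5, all on the minus strand. Capitals mark matches to any of 7 motifs searched on both strands, with overlaps counted.
S100A6: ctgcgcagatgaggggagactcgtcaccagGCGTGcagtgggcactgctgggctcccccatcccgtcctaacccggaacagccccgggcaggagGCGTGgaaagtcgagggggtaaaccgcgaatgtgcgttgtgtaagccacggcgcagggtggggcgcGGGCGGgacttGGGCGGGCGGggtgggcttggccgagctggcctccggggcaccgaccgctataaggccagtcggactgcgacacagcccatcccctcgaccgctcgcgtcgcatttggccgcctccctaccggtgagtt
ANXA6: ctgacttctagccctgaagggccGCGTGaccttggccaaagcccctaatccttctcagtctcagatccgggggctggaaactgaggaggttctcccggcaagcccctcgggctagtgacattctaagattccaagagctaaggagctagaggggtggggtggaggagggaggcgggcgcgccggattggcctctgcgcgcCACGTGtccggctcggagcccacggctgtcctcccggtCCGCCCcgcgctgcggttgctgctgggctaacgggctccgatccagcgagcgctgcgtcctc
ANXA5: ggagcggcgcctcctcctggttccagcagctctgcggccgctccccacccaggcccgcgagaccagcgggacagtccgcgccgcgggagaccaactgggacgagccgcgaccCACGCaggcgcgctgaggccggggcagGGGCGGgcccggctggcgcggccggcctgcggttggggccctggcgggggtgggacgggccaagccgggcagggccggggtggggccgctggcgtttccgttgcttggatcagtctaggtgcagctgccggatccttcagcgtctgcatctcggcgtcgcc
The motif GCGTG (core of the aryl hydrocarbon receptor element) occurs in each of these 3 windows. Among the other called genes, it is in some windows of ANXA11 and in none of ANXA4 or ANXA2R-AS1. Over all 10 windows of the called members it occurs in 60%, against 36.5% of the 35116 promoter windows of all genes. The Sp1 box GGGCGG occurs in 60% against 45.0%, and the E-box CACGTG in 20% against 7.26%. No called member's window holds GGAATG (the TEAD core), found in 14.0% of all windows, or TGANTCA (the AP-1 site), found in 7.71%. The CArG box of serum response factor is likewise in 0 of the 10 windows and in 1.29% of all. A match is a description of letters, not of a bound site, and windows of 1 gene can overlap. The 10 windows belong to 6 genes, with up to 3 windows a gene. Their medians were 67.8% G plus C and 26 CpG dinucleotides, against 58.7% and 14 over all windows. Whether base make-up accounts for these motif shares was not tested.

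The promoters of the families differ in make-up, a feature the choice of members did not use. The TATA box, TATAAA, occurs in 42.3% of 26 windows of S100 family genes and in 28.6% of 14 windows of annexin family genes, against 11.5% of all windows. It is found for 10 of 19 S100 family genes and 4 of 10 annexin family genes with a window. S100 family windows have a median of 57.8% G plus C and 5 CpG dinucleotides, annexin family windows 65.3% and 24, and all windows 58.7% and 14. The S100A6 window above has 31 CpG.

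**Figure D2:**
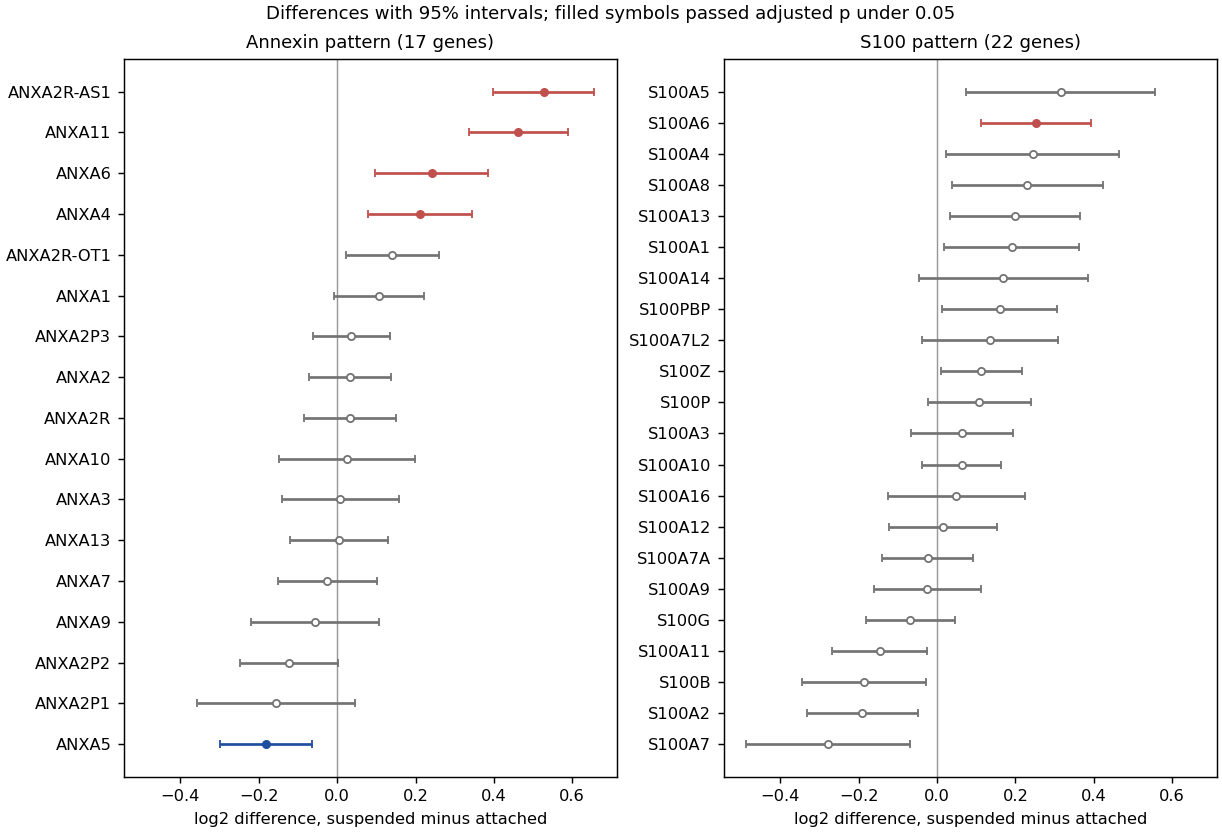
Log2 difference, suspended minus attached, of the 17 annexin-pattern genes (left) and 22 S100-pattern genes (right), with 95% intervals from limma; filled symbols passed the test, red higher and blue lower in suspended cultures. Most annexin genes that were not called sit near 0, whereas S100 genes spread from -0.28 to 0.32 with wide intervals.

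The annexin family genes that were not called had differences of -0.06 to 0.11. ANXA2, the best known membrane scaffold of the family, had 11.13, 11.20, 11.21 and 11.29 in suspended cultures and 11.17, 11.19, 11.20 and 11.15 in attached cultures. The groups overlapped throughout, and the difference of 0.03 had a 95% interval of -0.07 to 0.14. ANXA1, which inhibits cytosolic phospholipase A2 and carries anti-inflammatory signals, had 12.45, 12.55, 12.60 and 12.44 against 12.45, 12.34, 12.40 and 12.43. Its difference of 0.11 had an interval of -0.01 to 0.22 (limma adjusted p = 0.19), and it was called with quantile normalization, where it was 0.15, and with eBayes trend and robust. The remaining 5 family genes differed by -0.06 to 0.02. They are ANXA7 (-0.03), which takes part in granule fusion, ANXA9 (-0.06), ANXA10 (0.02), ANXA3 (0.01) and ANXA13 (0.00), the last known from intestinal and kidney epithelium. The signs of ANXA2, ANXA2R and these 5 genes turned in at least 1 alternative. The pseudogenes ANXA2P1, ANXA2P2 and ANXA2P3 differed by -0.16, -0.12 and 0.04, none called in the main setting. ANXA2P2 passed with eBayes trend, and with eBayes trend and robust, and the sign of ANXA2P3 turned in at least 1 alternative. As near copies of ANXA2, these pseudogenes have probe sets that may not be told apart from it.

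Many S100 members gave low signals. Of 20 S100 family genes, 10 had a mean signal under 5.28, the 25th percentile of gene means, and 0 of these were called by limma, although 6 had an unadjusted p under 0.05. These 10 are S100A1, S100A5, S100A7, S100A7A, S100A8, S100A12, S100A16, S100B, S100G and S100Z. Of all 4604 genes under that level, 3.74% were called and 544 had an unadjusted p under 0.05. Of 11 annexin family genes, 3 were under it and 0 were called or had an unadjusted p under 0.05. Above it, 4 of 8 annexins and 1 of 10 S100 genes were called, against 26.2% of all genes above it. The SD over 4 cultures had a median of 0.09 in suspended and 0.08 in attached cultures over the 39 members.

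S100A4, known as a metastasis-associated protein that binds non-muscle myosin, had 6.22, 5.99, 6.02 and 6.31 in suspended cultures and 6.05, 6.07, 5.79 and 5.66 in attached cultures. The groups overlapped and the difference of 0.24 was not called (limma adjusted p = 0.117, 95% interval 0.02 to 0.47). S100A5, a neighbour best known from olfactory neurons, had the largest S100 difference, 0.32 (limma adjusted p = 0.067), at a mean signal under the 25th percentile of gene means. Its suspended values were 5.24, 4.62, 4.83 and 5.10 against 4.68, 4.64, 4.62 and 4.58, so suspended replicate 2 lay among the attached cultures. Without that culture its difference was 0.42 (limma adjusted p = 0.00596). With all cultures kept, S100A5 also passed with eBayes trend, and with eBayes trend and robust.

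At the other end stood S100A7, or psoriasin, a keratinocyte alarmin, whose mean signal was also under the 25th percentile of gene means. It had 4.93, 5.29, 5.18 and 5.08 in suspended cultures and 5.64, 5.24, 5.43 and 5.30 in attached cultures, overlapping at the margin. The difference was -0.28 (limma adjusted p = 0.0612), and it passed the test without suspended replicate 2 or without attached replicate 2, with 0.0336 as the lower of the limma adjusted p-values. With all cultures kept, S100A7 also passed with median centring, centring on tested genes, eBayes trend, and eBayes trend and robust. S100A2, a nuclear S100 protein of basal epithelium that binds p53, had 6.19, 6.10, 6.08 and 6.11 against 6.14, 6.34, 6.32 and 6.45, with 1 attached culture among the suspended ones. The difference was -0.19 (limma adjusted p = 0.0577). Without that culture, attached replicate 1, it was -0.25 (limma adjusted p = 0.0112). With all cultures kept, S100A2 also passed with quantile normalization, median centring, centring on tested genes, the filter at the 25th percentile and array weights.

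The inflammatory S100 proteins form a group of their own. S100A8 and S100A9 pair as calprotectin, which binds TLR4 and RAGE, and S100A12 binds RAGE. S100A8, with a mean signal under the 25th percentile of gene means, had 5.08, 5.13, 5.02 and 5.37 in suspended cultures. In attached cultures it had 5.01, 4.98, 4.99 and 4.70. The groups just failed to overlap, and the difference of 0.23 was not called (limma adjusted p = 0.0923). S100A9 and S100A12 differed by -0.03 and 0.02, and their signs turned in at least 1 alternative. Of 8 myeloid markers, CD14 was called higher by 0.22 (limma adjusted p = 0.047), and PTPRC averaged 3.94 in both groups. The summed signal of these markers was 312 to 366 per suspended array and 304 to 335 per attached array, and their part in the S100A8 values was not tested.

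The other S100 members were not called. Higher in suspended cultures were S100A13 (0.20), which serves in the release of growth factors that lack a signal peptide, S100A1 (0.19), a regulator of muscle calcium handling, and S100A14 (0.17). S100PBP (0.16), S100A7L2 (0.13), S100Z (0.11) and S100P (0.11) had smaller positive differences. S100A3 (0.06), S100A10 (0.06), S100A16 (0.05) and S100A7A (-0.02) were nearest to 0 among these, and the sign of S100A7A turned in at least 1 alternative. Below it were S100G (-0.07), the intestinal calcium buffer calbindin-D9k, S100A11 (-0.15) and S100B (-0.19), the glial and melanocytic S100 protein. In refits without 1 culture, S100B passed without suspended replicate 3 (limma adjusted p = 0.0494), S100PBP without suspended replicate 4 (0.0167), S100A13 without attached replicate 1 (0.0497) and S100A1 without attached replicate 2 (0.0394). S100A11 passed with centring on tested genes, the filter at the median, eBayes trend, and eBayes trend and robust, with differences of -0.19 to -0.10 over all alternatives. S100B also passed with centring on tested genes. Melanocyte and Schwann cell markers had 0 of 4 called and keratinocyte markers 0 of 5 by limma, with 1 gene in each list at an unadjusted p under 0.05. The melanocyte and Schwann cell markers averaged 5.60 to 5.80 per suspended array and 5.63 to 5.71 per attached array, and the keratinocyte markers averaged 5.34 to 5.48 and 5.35 to 5.43.

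Genes of known complexes were then compared pair by pair, by asking whether the gap between partners within an array changed with attachment. Exact two-sided permutation tests over the 8 arrays were run for 4 pairs, and 0.0286 is the smallest p they allow. The gap of ANXA1 over S100A11 was wider in suspended cultures by 0.25 (exact p = 0.0286, adjusted over the 4 pairs 0.0571). S100A11, a keratinocyte and cancer cell S100 protein that carries annexin A1 to membranes, had 11.34, 11.44, 11.44 and 11.28 in suspended cultures and 11.44, 11.60, 11.54 and 11.51 in attached cultures. For ANXA2 and S100A10 the gap changed by -0.03 (exact p = 0.571, adjusted 0.571). S100A10, or p11, the annexin A2 partner that brings channels to the surface, had 11.67, 11.69, 11.65 and 11.60 against 11.58, 11.62, 11.63 and 11.52. Both genes of that tetramer thus overlapped between groups, and the interval of the S100A10 difference ran from -0.04 to 0.16.

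For ANXA11 and S100A6, both called higher, the gap changed by 0.21 (exact p = 0.0857, adjusted 0.114). The gap of S100A8 against S100A9 changed by 0.26 (exact p = 0.0286, adjusted 0.0571). None of the 4 pairs passed after adjustment. Both pairs at 0.0286 had reached the smallest p the design allows, and with 4 pairs adjusted at least 3 would have had to reach it for any to pass.

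**Figure D3:**
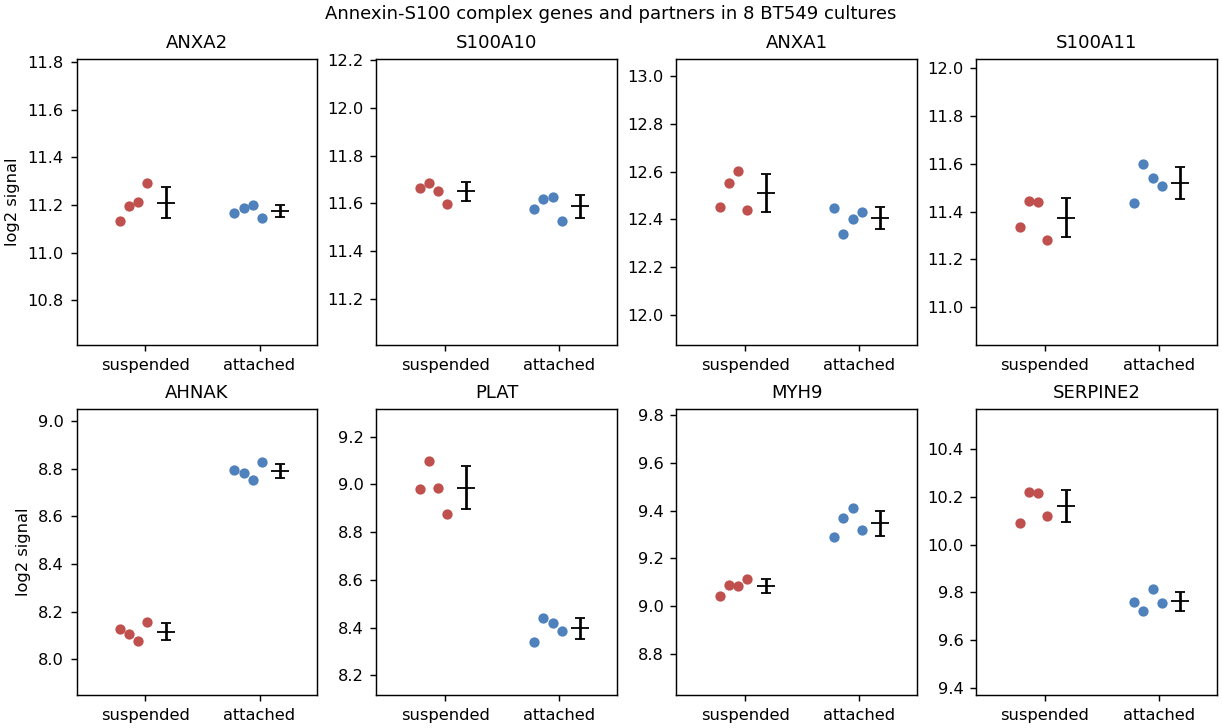
Log2 signal of 4 complex genes (upper row) and 4 partner genes (lower row), 1 point per culture, suspended left and attached right, with mean and SD of 4 cultures. ANXA2, S100A10 and ANXA1 overlap between the groups, whereas AHNAK and MYH9 were lower, and PLAT and SERPINE2 higher, in all suspended cultures.

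Most S100 genes lie in 1 stretch of chromosome 1, ordered here by RefSeq. From S100A10 to S100A1 the stretch holds 60 tested genes, among them 17 S100 members and the genes of the epidermal differentiation complex. Of the 60, 2 were called, both higher in suspended cultures: S100A6, and LCE1E, a cornified envelope gene named after its value was seen (0.30, limma adjusted p = 0.0329). That is 3.33%, against 20.6% of all genes. In this stretch 23 genes had mean signals under the 25th percentile of gene means, where 3.74% of all genes were called. The other 37, S100A6 and LCE1E among them, lay at or above it, where 26.2% of all genes were called. The median absolute difference was 0.17 for the 17 S100 members and 0.06 for the other 43 genes, against 0.09 for all genes. The neighbours S100A6, S100A5 and S100A4 all had positive differences, between 0.24 and 0.32, and S100A7 beside them had the lowest of the stretch. Of these only S100A6 was called, and the groups overlapped for S100A5, S100A4 and S100A7. Next to S100A4, S100A3 and S100A2 differed by 0.06 and -0.19, neither called.

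**Figure D4:**
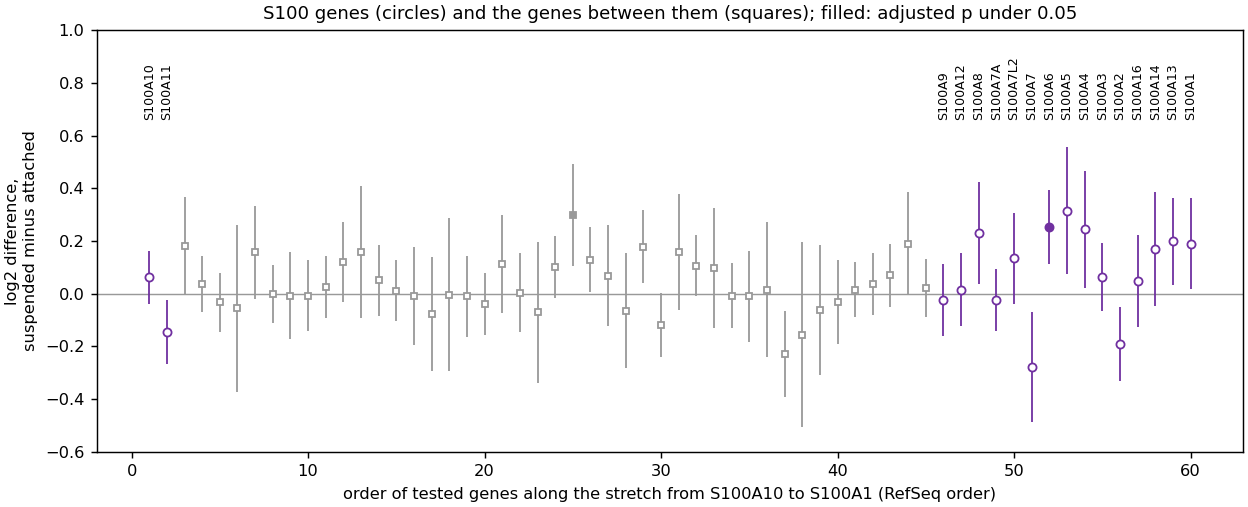
Log2 difference, suspended minus attached, with 95% intervals, of the 60 tested genes in their order from S100A10 to S100A1 on chromosome 1; circles are S100 members, squares other genes, filled symbols passed the test. S100A10 and S100A11 stand apart from the other S100 genes at the left, and S100A6 and LCE1E are the 2 filled symbols.

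Several partner and effector genes had larger differences than any member. Among 20 measured intracellular partners of S100 proteins, 2 were called higher and 7 lower, 45% against 20.6% of all genes. The list median was -0.07. AHNAK, the giant scaffold held by annexin A2 and S100A10 at the membrane, had 8.13, 8.11, 8.08 and 8.16 in suspended cultures and 8.80, 8.78, 8.75 and 8.83 in attached cultures. The groups stood far apart, with a difference of -0.67 (SE 0.044, limma adjusted p = 1.23e-06). MYH9, the non-muscle myosin that S100A4 disassembles, had 9.04, 9.09, 9.08 and 9.11 against 9.29, 9.37, 9.41 and 9.32, a difference of -0.26 (limma adjusted p = 0.00168). The tropomyosins TPM1 (-0.82) and TPM2 (-0.21) also fell, as did the S100A6 partners CACYBP (-0.21) and SUGT1 (-0.16), and SGTA (-0.17). CACYBP has 2 probe sets, and with their mean its difference was -0.09 and not called (limma adjusted p = 0.21). SGTA was not called with quantile normalization (limma adjusted p = 0.0589) or a replicate block (0.0527). IQGAP1 (0.30), a scaffold that binds S100B and S100P, and KCNK3 (0.27), a potassium channel that S100A10 brings to the surface, rose. The call of SUGT1 was lost in 6 of 8 refits that left out 1 culture.

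Of 8 measured genes of the plasminogen system, which assembles on annexin A2 and S100A10, 2 were called higher and 0 lower. That is 25%, against 20.6% of all genes, and the list median was -0.01. PLAT, the tissue plasminogen activator that docks on annexin A2, had 8.98, 9.10, 8.98 and 8.88 in suspended cultures and 8.34, 8.44, 8.42 and 8.39 in attached cultures. No values overlapped (difference 0.59, limma adjusted p = 1.86e-05). SERPINE2, an inhibitor of such proteases, differed by 0.40 (limma adjusted p = 0.000153). Of 8 measured receptors of S100 proteins and annexins, 1 rose and 1 fell, again 25%, with a list median of 0.03. ALCAM, a receptor for S100B, had 11.03, 11.06, 11.09 and 11.04 against 11.47, 11.50, 11.44 and 11.53 (difference -0.43, limma adjusted p = 3.87e-05). FPR2, a receptor for annexin A1, differed by 0.20 (limma adjusted p = 0.042) and lost its call in 7 of 8 refits without 1 culture. The mean signal of FPR2 was under the 25th percentile of gene means. AGER, which encodes RAGE, differed by 0.05 and TLR4 by 0.00.

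Calcium-triggered membrane repair, in which annexins gather at the wound, had 5 genes higher and 5 lower of 22, 45.5% against 20.6% of all genes. The list median was 0.06. SMPD1 (0.66), the acid sphingomyelinase, CAPN1 (0.34), a calpain needed for repair, and SNAP23 (0.21) rose, while CAVIN1 (-0.69), EHD4 (-0.46), MYOF (-0.17), CAV1 (-0.16) and EHD2 (0.16) completed the 8 called genes with the largest changes. Among 44 other EF-hand calcium proteins, 8 rose and 7 fell, or 34.1%, with a list median of 0.04. The 8 called genes with the largest changes were EFHD1 (0.47), SPARC (0.37), HPCAL1 (0.37), PLS3 (0.33), PLS1 (-0.33), NUCB2 (-0.33), KCNIP3 (-0.25) and NUCB1 (0.24). Leaving out 1 culture at a time ended the call of EHD2 in 7 of 8 refits, of CAV1 in 3, of MYOF in 2 and of KCNIP3 in 5. With quantile normalization CAV1 was at -0.10 (limma adjusted p = 0.192) and MYOF at -0.11 (0.0904), and neither was called there or with a replicate block. SNAP23 was not called with centring on tested genes (limma adjusted p = 0.0585). Eicosanoid and glucocorticoid genes around annexin A1 had 2 higher and 1 lower of 12, 25% against 20.6% of all genes, with a list median of 0.03. Called were PLA2G4A (0.49), the phospholipase that annexin A1 inhibits, PTGS2 (0.31) and the glucocorticoid receptor NR3C1 (-0.19). PTGS2 had a mean signal under the 25th percentile of gene means, and NR3C1 was not called with quantile normalization (limma adjusted p = 0.0525). No call was made by limma among 6 S100 fused-type genes, with 0 at an unadjusted p under 0.05, where TCHHL1 had the smallest p (0.18, limma adjusted p = 0.164). None was made among 23 epidermal differentiation neighbours, with 2 at an unadjusted p under 0.05, where SPRR2A had the smallest (-0.23, limma adjusted p = 0.0503). Together these 8 lists hold 143 measured genes outside the members, of which 41 were called, 20 higher and 21 lower, 28.7% against 20.6% of all genes. Of the 143 genes, 103 had mean signals at or above the 25th percentile of gene means, where 26.2% of all genes were called. The lists were chosen with earlier results of these data known, so these shares are descriptive only.

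**Figure D5:**
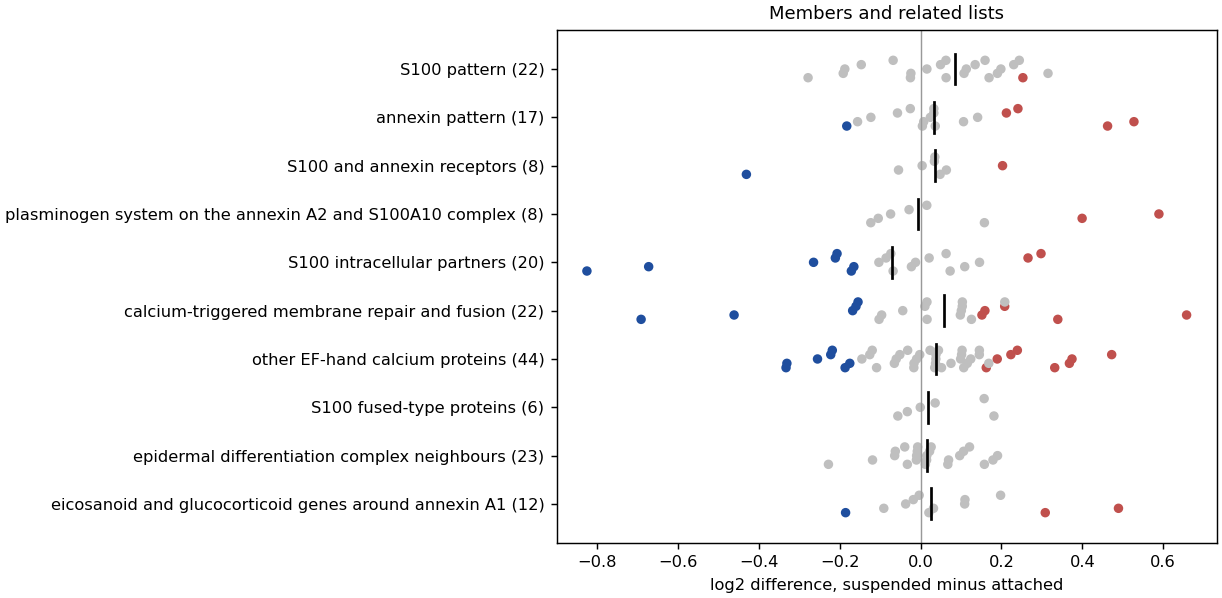
Log2 difference, suspended minus attached, of the members and of 8 related lists (rows, number measured in brackets), 1 point per gene; red and blue points passed the test as higher and lower in suspended cultures, grey points did not, and black bars mark list medians. The S100 row has 1 coloured point, and the partner and membrane repair rows reach furthest to either side.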

How the data were processed

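Total RNA of 8 BT549 cultures, 4 suspended and 4 attached, was measured on arrays with 33297 probe sets. The authors made log2 signals with Partek, per the submitters' processing notes, and deposited them as 1 value table, used unaltered. The log2 scale was inferred from array maxima between 13.69 and 13.73. Partek's version and the normalization it applied are not given in the sources here. Symbols came from the platform annotation: 19460 probe sets had 1 symbol, 1754 several and 12083 none. Where several probe sets shared a symbol (769 genes), the brightest was taken. All 39 members matched RefSeq symbols.

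The comparison used lmFit and eBayes of limma 3.58.1 (R 4.3.3), two-sided and without covariates, and p-values were adjusted by Benjamini-Hochberg over 18417 genes. The same code was tested on simulated data. Pairs of complex genes were tested with exact permutation tests in scipy 1.17.1. Every called member is named with its value in each array and every other member with its difference; of the lists, called genes are named by size of difference, at most 8 a list, and the smallest p where none was called. Members and lists were chosen with earlier results of these data known. Alternatives were a replicate block, quantile normalization, median centring over all probe sets or over tested genes, filters at the 25th percentile and the median, eBayes with trend or with trend and robust, array weights, the mean of rows, all rows tested, and leaving out each culture. Replicate numbers occur in both groups, but deviations of same-numbered cultures correlated at 0.042, -0.198, -0.016 and -0.17. These values show no sign of pairing, though they cannot exclude that same-numbered cultures were handled together.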

Additional observations from a re-analysis of the deposited data

Results flagged for a closer look

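Within groups of 4 cultures, 6 of 78 combinations of member and group had 1 culture whose gap to the nearest of the others exceeded the share of the group's range set by Dixon's 95% critical value, and chance alone gives about 1 in 20. The 6 values fell on 6 different arrays. S100A8 had 4.70 in attached replicate 4, with the other attached cultures at 4.98 to 5.01. S100P had 5.61 in attached replicate 1, against 5.67 in the other 3. ANXA13 had 4.40 in attached replicate 3, with the others at 4.25 to 4.27. ANXA11 had 10.23 in suspended replicate 4, with the others at 10.08 to 10.10, and ANXA6 had 10.12 in suspended replicate 3, with the others at 10.21 to 10.23. ANXA3 had 4.10 in suspended replicate 1, with the others at 4.28 to 4.31.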

How the results depend on the processing

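The number of genes called over the whole array stayed within 1.5 times of 3787 under every alternative, from 2934 to 4197. Of these 50.4% were higher in the main setting and 35.2% with arrays centred on the median of tested genes, an alternative chosen after seeing the data, which moved the median difference of all genes from 0.02 to -0.02. For the S100 pattern, 1 gene was called in the main setting, 2 with quantile normalization, either low-signal filter or array weights, 3 with median centring, 4 with the eBayes trend with or without robust, and 5 with centring on tested genes. Leaving out 1 culture gave 1 to 3. For the annexin pattern, 5 were called (4 higher and 1 lower), 6 with the eBayes trend, 7 with trend and robust, 5 with quantile normalization (5 higher and 0 lower), 3 with centring on tested genes, 2 with all rows tested, where more tests were adjusted for, and 2 to 4 with 1 culture left out, where fewer samples entered. With the replicate number as a block, although no sign of pairing was seen, 3022 genes, 1 S100 gene and 4 annexin genes were called. ANXA5 was not called there (limma adjusted p = 0.0641). ANXA11 and S100A6 kept their calls and direction under every alternative, and ANXA2R-AS1 under every one except the filter at the median, where it was not tested. No called member changed direction. The other causes were not tested. Over the lists, 30 of 41 called genes kept their call in all 8 refits without 1 culture and 24 in every alternative in which they were tested. Low signals, with no measure of background, limit what can be said of the S100 genes under the 25th percentile.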

Other observations

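Probe sets shared by ANXA8 and its near copy ANXA8L1 carry 2 symbols and were not counted as members. The 3 such probe sets differed by -0.00, -0.01 and 0.00 between suspended and attached cultures, with means of 5.83, 5.87 and 5.51 in suspended and 5.83, 5.88 and 5.51 in attached cultures. A probe set shared by SNU13 and ANXA2 differed by -0.05 (limma adjusted p = 0.627 over all rows).

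The stretch of S100 genes on chromosome 1 has flanks that were looked at after the values were seen. Among the 10 tested genes before S100A10, TUFT1, which encodes tuftelin, fell by 0.90 on the log2 scale to a mean of 7.50 in suspended cultures, against 8.40 in attached cultures (limma adjusted p = 1.42e-06), and SNX27, a sorting nexin, rose by 0.16 (limma adjusted p = 0.0404). Among the 10 tested genes after S100A1, 0 were called by limma, with 1 at an unadjusted p under 0.05.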
